A study of Homo sapiens with 5 samples.

Results

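Solute carriers are the largest class of membrane transporters in human cells, and their genes were followed here in a chondrocyte line moved from growth medium to hypertrophic medium. The members are the listed genes whose symbol begins with SLC, a family number, capitals and a member number, or with SLCO, without the antisense, divergent or intronic transcripts and without SLC2A1. This rule took 56 of the 2694 genes that have a deposited value. RefSeq classes 53 of them as protein coding and 2 as transcribed pseudogenes (SLC35E2A and SLC9A7P1), and SLC22A18 was not matched. A reading of the rule over the whole symbol took 53 genes, without SLC35E2A, SLC35E2B and SLC9A7P1. The members were grouped by the substrate class of their family number, which gave 8 classes and 27 families. RefSeq holds 394 protein-coding genes that meet the same rule, so most solute carriers have no value here, and the absence of a gene from the list says nothing of its level.

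The cells were TC28a2, an immortalised human chondrocyte line, and their RNA was sequenced on day 5 in bulk. The control group was kept in growth medium with 10% fetal bovine serum (GM, n = 2). The other group was kept in hypertrophic medium (HM, n = 3), in which serum was lowered to 1% and insulin, transferrin and selenium (ITS-A, 1%), BMP-2 (100 ng/ml), GDF-5 (10 ng/ml), T3 (1 µM), ascorbic acid (50 µg/ml), dexamethasone (10 nM) and β-glycerophosphate (10 mM) were added. The media therefore differ in serum and in 7 supplements at once, and the part of each cannot be told apart. Each gene has a log2 value per library, made by the authors from read counts with a scaling between libraries. A difference below is always the mean of hypertrophic medium minus the mean of growth medium on this deposited log2 scale. The values are not divided by gene length, so levels are not compared between genes. The depth of each library is unknown from these values. The study's methods speak of biological replicates and donors for its experiments and name the smaller control group of the sequencing as an exception. These libraries are of a cell line, and nothing says whether they came from separate cultures, so the p-values measure only the spread between these 5 samples, which may be technical. Nearly all listed genes differ between the media, as in a list selected on these same libraries, and an adjusted p here only sets a difference against that spread. The differences cannot be assigned to less RNA per cell or to fewer cells of a kind, which bulk RNA does not separate.

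Solute carriers move nutrients, ions, metabolites and hormones across the plasma membrane and the membranes of organelles, mostly as exchangers or as symporters that draw on sodium or proton gradients. In cartilage they supply sulfate for proteoglycans, glucose and amino acids for matrix synthesis, and the ion and water fluxes through which growth plate chondrocytes swell. SLC26A2, the sulfate transporter that is mutated in diastrophic dysplasia, is the best known example. Of 14 chondrocyte markers, 5 were listed (SOX9, COL2A1, ACAN, COL9A2 and COL9A3), and 5 of 5 were higher in hypertrophic medium, where 63.4% of all listed genes had a higher mean. SOX9, the transcription factor of the lineage, differed by 0.65, and its call was lost after centring (0.30; limma, adjusted p = 0.0525) and with quantile normalization (0.29; limma, adjusted p = 0.059). Centring here sets the median of the listed genes in each library to the same value. COL2A1, the main collagen of cartilage, had log2 values of 7.57 and 7.83 in growth medium and 9.50, 9.03 and 9.16 in hypertrophic medium. Of 6 markers of hypertrophic chondrocytes, MMP13 alone was listed, with a difference of 0.70, a call lost after centring (0.35; limma, adjusted p = 0.116). The endothelial cadherin CDH5, 1 of 3 endothelial markers, was listed at 8.20 and 8.19 in growth medium and at 6.87, 7.15 and 6.99 in hypertrophic medium. Short marker sets of osteoblasts (4 genes), adipocytes (4), keratinocytes (4) and leukocytes (3) were also looked up, and 0 of these genes were listed. Other genes that such cells express are listed and were not counted. The part of these shifts in the solute carrier results was not tested.

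In hypertrophic medium 42 of the 56 members had a higher mean and 14 a lower one. By limma with an adjusted p under 0.05 over the 2694 genes, 40 members rose (71.4%, against 62.5% of all listed genes) and 14 fell (25%, against 36.5%). The median difference was 0.65 over the members and 0.56 over all listed genes. For 55 members the growth and hypertrophic libraries did not overlap (98.2%, against 99.0% of all listed genes), and SLC6A16 was the member that overlapped. These shares lie near the background of a list in which almost every gene was called. Differences of 1 or more were few. SLC38A3, SLC22A17, SLC47A1 and SLC12A8 rose by at least 1 (4 members or 7.14%, against 11.8%), and SLC35F3, SLC16A9, SLC27A2 and SLC37A2 fell by at least 1 (4 members or 7.14%, against 7.05%). The rises of at least 1 numbered 1 after centring, 1 with quantile normalization, 2 without growth medium replicate 2 and 7 without hypertrophic medium replicate 3. The falls of at least 1 numbered 8 after centring. SLC2A10 lay just outside this threshold, at 1.00 after rounding but under 1. SLC1A3 and SLCO2A1 were not called. With 5 libraries there are 10 arrangements, so an exact permutation test of any gene cannot give a p under 0.1.

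The counts were also taken under other scalings of the libraries. Centring each library on its median over the listed genes lowered every difference by 0.35. The list appears selected and holds more higher than lower genes, so its median need not be 0, and this setting can only take away rises and deepen falls. It shows how many calls exceed such a shift and does not test the balance of rises and falls. Then 21 members were called higher (37.5%, against 31.4% of all listed genes) and 14 lower (25%, against 36.6%), with a median difference of 0.30 over the members and 0.21 over all listed genes. The higher share of the called members went from 74.1% to 60% with centring and to 66.7% with quantile normalization. Quantile normalization called 28 members higher and 14 lower, next to 1257 and 964 of the 2694 listed genes. The difference of SLC49A3 went from 0.34 as deposited to -0.01 after centring. The smallest absolute difference was 0.32 over all members and 0.56 over members at or above the median value of the listed genes. A shift of 0.35 can therefore turn the sign of a rise only among members of lower value, such as SLC49A3. By the same shift 19 of the rises were no longer called, while the 14 falls became larger by construction. With quantile normalization 12 of the rises were no longer called.

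**Figure D1:**
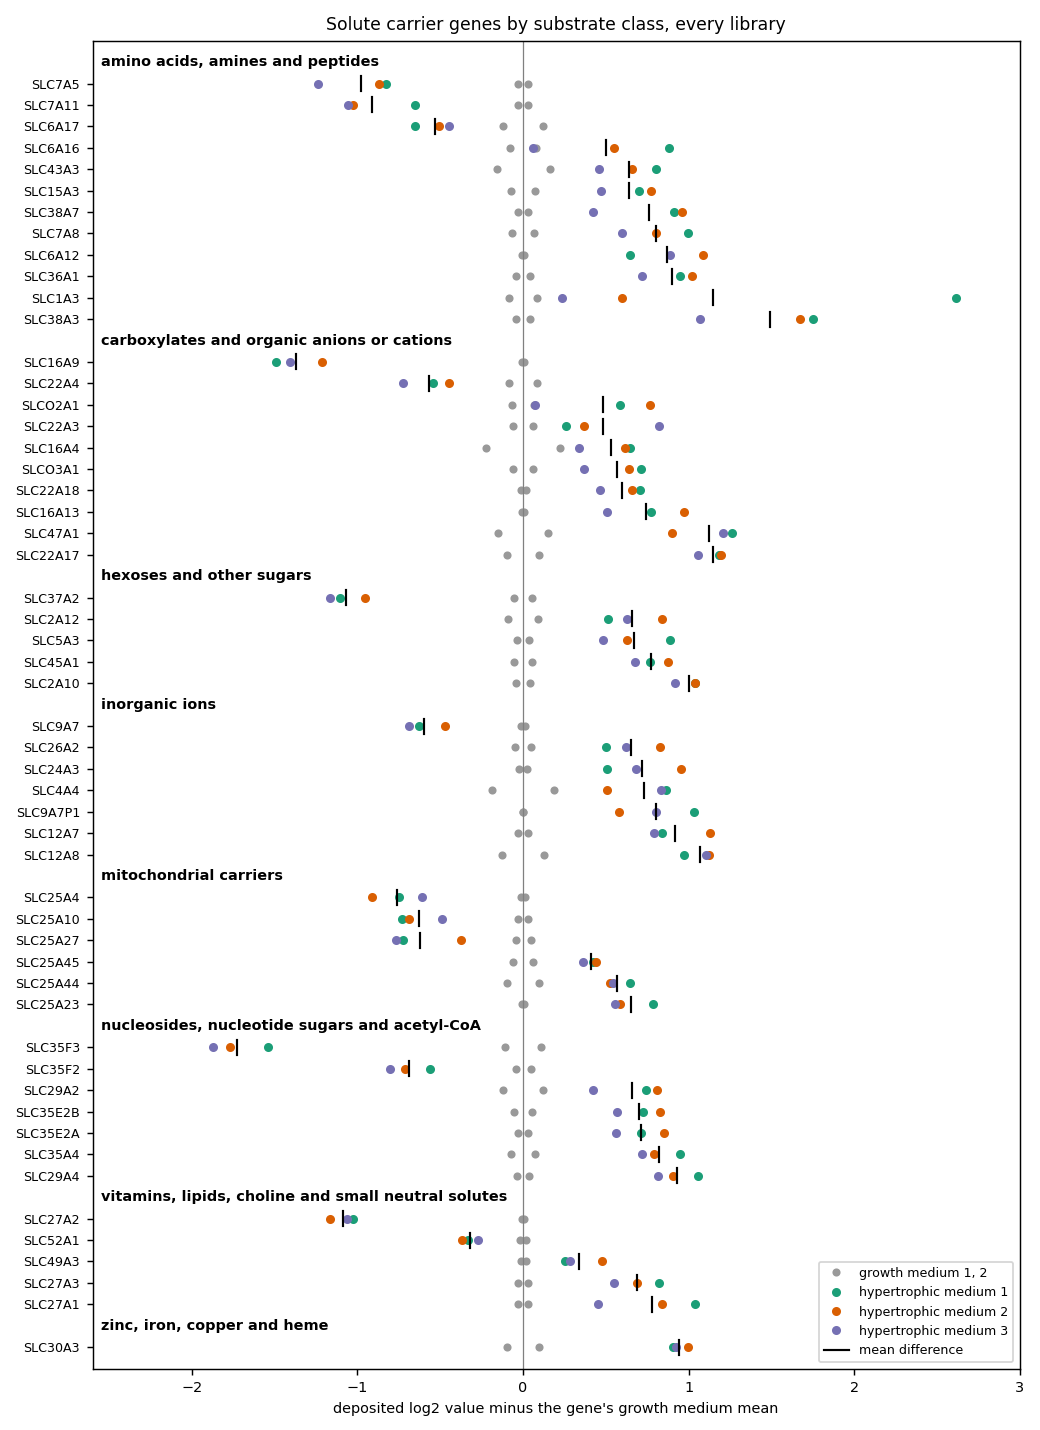
Each library's deposited log2 value minus the gene's growth medium mean, for 53 of the 56 members, in 8 substrate classes. Grey points are the 2 growth medium libraries, coloured points the 3 hypertrophic medium libraries and black ticks the mean difference. The point of SLC1A3 far to the right is hypertrophic medium replicate 1.

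**Figure D2:**
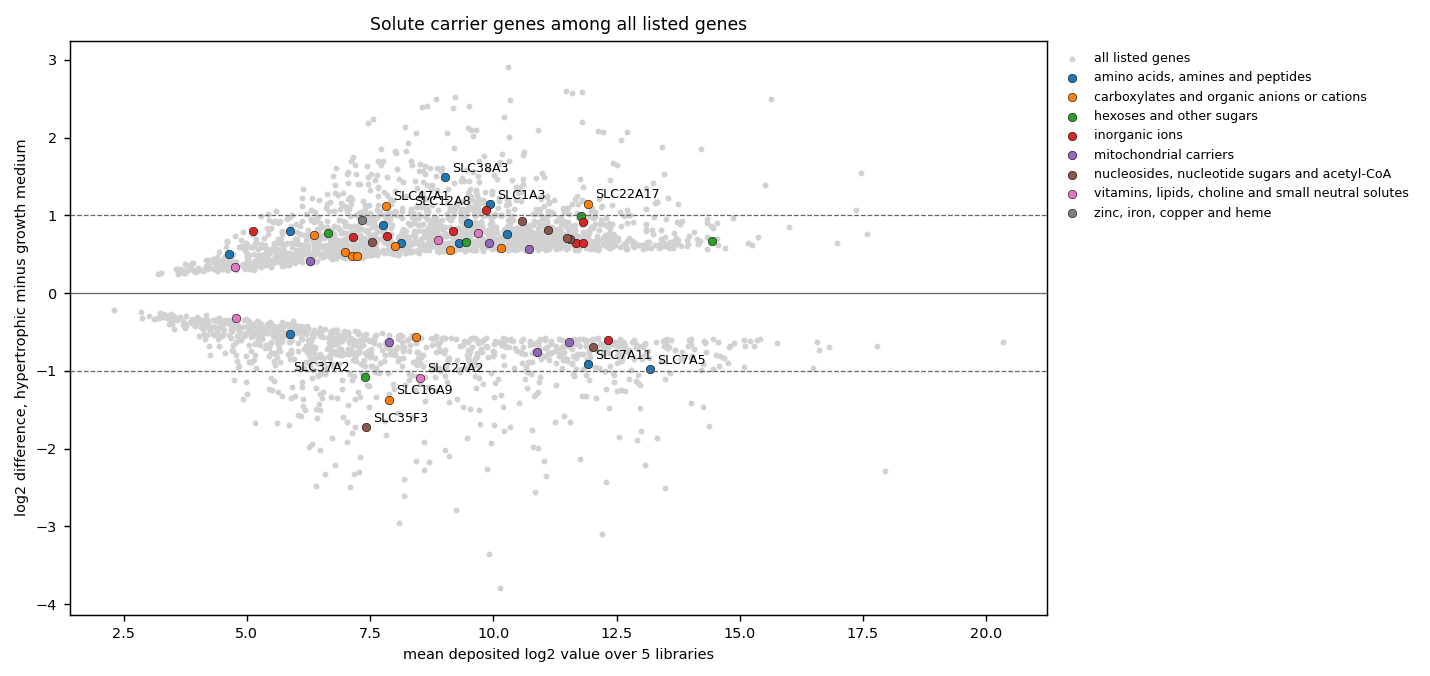
Difference in log2 value (hypertrophic minus growth medium) against the mean log2 value over 5 libraries, for all 2694 listed genes in grey and the members coloured by substrate class. Dashed lines mark differences of 1 and -1, and the empty band around 0 shows that genes without a difference are not listed.

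Among the carriers of amino acids, amines and peptides, 12 genes were listed, of which 8 rose and 3 fell, with a median difference of 0.70. After centring 5 rose and 3 fell. For comparison, over all listed genes 62.5% were called higher and 36.5% lower, and after centring 31.4% and 36.6%. SLC38A3, a sodium-coupled glutamine transporter, had the largest rise of the 56 members. Its log2 values were 8.09 and 8.17 in growth medium and 9.88, 9.80 and 9.20 in hypertrophic medium. Replicate 3 was the lowest of the hypertrophic libraries and still lay above both growth libraries. The difference was 1.49 ± 0.21 (SE; limma, adjusted p = 0.000327), and 1.15 after centring. SLC36A1, a proton-coupled exporter of small amino acids on lysosomes, rose by 0.90. SLC38A7, which exports glutamine from lysosomes, rose by 0.76, although not by the test with quantile normalization (0.34; limma, adjusted p = 0.0566). SLC6A12 carries betaine and GABA and serves in osmolyte uptake. Its difference was 0.87 ± 0.17 (SE), from 7.23 and 7.24 in growth medium to 7.88, 8.32 and 8.12 in hypertrophic medium, with no overlap.

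The falls in this class were in exchangers of family 7 and in SLC6A17. SLC7A5 (LAT1), which exchanges large neutral amino acids across the plasma membrane, had log2 values of 13.80 and 13.74 in growth medium and 12.94, 12.90 and 12.53 in hypertrophic medium. All 3 hypertrophic libraries were lower than both growth libraries, and replicate 3 was the lowest. It fell by 0.98, with an SE of 0.14 (limma, adjusted p = 0.000437). SLC7A11, the cystine and glutamate exchanger that feeds glutathione synthesis, gave 12.49 and 12.43 in growth medium and 11.81, 11.43 and 11.40 in hypertrophic medium. It fell by 0.91, with replicate 1 nearest to the growth libraries. SLC7A8 (LAT2), which shares many substrates with LAT1, moved the other way. Its values were 5.32 and 5.45 in growth medium and 6.38, 6.19 and 5.98 in hypertrophic medium, a rise of 0.80 (0.45 after centring, still called). SLC6A17, a vesicular carrier of neutral amino acids, fell by 0.53, a call that was lost without growth medium replicate 2 (-0.41; limma, adjusted p = 0.0641).

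SLC1A3, the glutamate and aspartate transporter known as GLAST, had the widest spread of the members. Its log2 values were 9.15 and 9.32 in growth medium and 11.85, 9.83 and 9.47 in hypertrophic medium. Replicate 1 stood about 2 units above the other hypertrophic libraries, while replicates 2 and 3 lay just above growth medium. The difference of 1.15 ± 0.56 (SE) did not pass the test (limma, adjusted p = 0.0717). Without hypertrophic medium replicate 1 it was 0.41 and passed (limma, adjusted p = 0.0281), since the spread shrank with it. Without hypertrophic medium replicate 3 it was 1.61 (limma, adjusted p = 0.033). The size of its difference thus depends on replicate 1. SLC6A16, an orphan member of the family, had the next widest spread (SD 0.412 in hypertrophic medium), with 4.42 and 4.26 in growth medium and 5.22, 4.89 and 4.40 in hypertrophic medium. Its replicate 3 lay within the growth libraries. The difference of 0.50 was called (limma, adjusted p = 0.0369), but not after centring (0.15; limma, adjusted p = 0.453). That call was also lost without growth medium replicate 2 (0.42; limma, adjusted p = 0.0987), without hypertrophic medium replicate 1 (0.31; limma, adjusted p = 0.0982) and without replicate 2 (0.47; limma, adjusted p = 0.115).

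The class of carboxylates and organic anions or cations had 11 listed genes, of which 8 rose and 2 fell. The median difference was 0.56, and after centring 2 rose and 2 fell. The shares over all listed genes were 62.5% higher and 36.5% lower, and 31.4% and 36.6% after centring. SLC22A17, a receptor for lipocalin-2 in the organic cation family, rose by 1.15. Its values were 11.14 and 11.33 in growth medium and 12.42, 12.43 and 12.29 in hypertrophic medium, with an SE of 0.12 (limma, adjusted p = 8.27e-05). The hypertrophic libraries lay close together, well above both growth libraries. SLC47A1 (MATE1), a proton exchanger that extrudes organic cations, rose by 1.12, from 7.29 and 6.99 to 8.40, 8.04 and 8.35. SLC16A9, a monocarboxylate family member linked to carnitine transport, fell by 1.37. Its libraries read 8.71 and 8.70 in growth medium and 7.21, 7.49 and 7.30 in hypertrophic medium, and no growth library came near the hypertrophic ones (limma, adjusted p = 0.000132). SLC22A4, an ergothioneine transporter, fell by 0.57, and the call was lost without growth medium replicate 2 (-0.48; limma, adjusted p = 0.0846). SLCO2A1, the prostaglandin transporter, gave 0.48 ± 0.21 (SE) and missed the threshold (limma, adjusted p = 0.0504).

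Of 5 carriers of hexoses and other sugars, 4 rose and 1 fell (62.5% and 36.5% of all listed genes), and after centring 3 rose and 1 fell (31.4% and 36.6%). SLC2A10 (GLUT10) is a facilitative transporter of glucose and dehydroascorbate whose loss causes arterial tortuosity. It read 11.22 and 11.14 in growth medium and 12.22, 12.22 and 12.10 in hypertrophic medium, a difference of 1.00 ± 0.11 (SE; limma, adjusted p = 0.000126). SLC5A3, the sodium-coupled carrier of the osmolyte myo-inositol, rose by 0.67. It gave 14.07 and 14.00 in growth medium and 14.92, 14.66 and 14.52 in hypertrophic medium. SLC37A2, a sugar phosphate exchanger of the endoplasmic reticulum, fell by 1.07, from 7.99 and 8.10 to 6.94, 7.09 and 6.88. All 3 of its hypertrophic libraries were lower than growth medium. SLC2A1 (GLUT1), which the rule leaves out, fell by 1.25, with values of 13.37 and 13.31 in growth medium and 11.85, 12.33 and 12.09 in hypertrophic medium.

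Carriers of inorganic ions showed 8 rises and 1 fall among 9 listed genes, with a median difference of 0.73, next to 62.5% and 36.5% of all listed genes. After centring 3 of the 8 were called higher, next to 31.4% of all listed genes. The pseudogene SLC9A7P1 is among the 8 and among the 3. SLC12A8, a divergent member of the cation chloride cotransporter family, rose by 1.07, from 9.34 and 9.09 in growth medium to 10.19, 10.34 and 10.32 in hypertrophic medium. SLC12A7 (KCC4), which couples potassium and chloride efflux in volume regulation, rose by 0.92, from 11.29 and 11.23 to 12.10, 12.39 and 12.05. For these genes each hypertrophic library lay above each growth library, and both calls held after centring (0.72 and 0.57). The sulfate transporter SLC26A2 read 11.39 and 11.49 in growth medium and 11.94, 12.27 and 12.06 in hypertrophic medium, and the call of its rise of 0.65 was lost after centring (0.30; limma, adjusted p = 0.082). SLC9A7, a sodium proton exchanger of the Golgi, fell by 0.60, from 12.70 and 12.68 to 12.06, 12.22 and 12.00.

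The 6 listed mitochondrial carriers were split evenly, with 3 rises, 3 falls and a median difference of -0.11, against 0.56 over all listed genes. After centring 1 was called higher and 3 lower. Of all listed genes 62.5% were called higher and 36.5% lower, and after centring 31.4% and 36.6%. SLC25A4 (ANT1), which exchanges ADP and ATP across the inner membrane, read 11.34 and 11.36 in growth medium and 10.60, 10.44 and 10.74 in hypertrophic medium. It fell by 0.76, with an SE of 0.13 (limma, adjusted p = 0.000818). The dicarboxylate carrier SLC25A10 fell by 0.63, from 11.88 and 11.94 to 11.18, 11.22 and 11.42. For both genes the hypertrophic libraries were all lower than the growth libraries. SLC25A27, a member of the uncoupling protein branch, fell by 0.62, but without growth medium replicate 2 the call was lost (-0.58; limma, adjusted p = 0.0555). SLC25A23, a calcium-regulated carrier of ATP-Mg and phosphate, rose by 0.65. With quantile normalization that call was lost (0.23; limma, adjusted p = 0.092).

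Carriers of nucleosides, nucleotide sugars and acetyl-CoA comprised 7 listed genes, 5 that rose and 2 that fell (62.5% and 36.5% of all listed genes), and after centring 4 and 2 (31.4% and 36.6%). The largest fall of all members was that of SLC35F3, a family 35 gene linked to thiamine transport. Its log2 values were 8.34 and 8.56 in growth medium and 6.91, 6.68 and 6.58 in hypertrophic medium. The groups were far apart, with replicate 1 nearest to growth medium, and the gene fell by 1.73 with an SE of 0.17 (limma, adjusted p = 6.03e-05). SLC35F2 of the same branch fell by 0.69, from 12.39 and 12.48 to 11.87, 11.72 and 11.63. SLC29A4 (PMAT), which carries monoamines as well as adenosine, rose by 0.93, and SLC35A4, a Golgi family member, by 0.82. SLC35E2A and SLC35E2B are near-identical copies, and their differences of 0.71 and 0.70 are uncertain because reads could be split between them. Both copies are among the 5 rises and among the 4 after centring, and SLC35E2A is the pseudogene of the pair.

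Of 5 carriers of vitamins, lipids and small neutral solutes, 3 rose and 2 fell (62.5% and 36.5% of all listed genes), and after centring 2 rose and 2 fell (31.4% and 36.6%). SLC27A2 (FATP2), a fatty acid transporter and very long chain acyl-CoA synthetase, fell by 1.09. It read 9.16 and 9.15 in growth medium and 8.13, 7.99 and 8.09 in hypertrophic medium, with little spread in either group. SLC27A1 (FATP1) rose by 0.78, from 9.26 and 9.20 to 10.27, 10.07 and 9.68, although not by the test with quantile normalization (0.32; limma, adjusted p = 0.0828). SLC52A1, a riboflavin transporter, fell by 0.32, a call lost without growth medium replicate 2 (limma, adjusted p = 0.0665). SLC49A3 rose by 0.34 as deposited, with values of 4.57 and 4.54 in growth medium and 4.81, 5.03 and 4.84 in hypertrophic medium, and lost its call after centring and without growth medium replicate 2 (0.33; limma, adjusted p = 0.0636). Of the carriers of zinc, iron, copper and heme 1 was listed, the vesicular zinc transporter SLC30A3. It rose by 0.94, from 6.87 and 6.68 in growth medium to 7.68, 7.77 and 7.70 in hypertrophic medium, and stayed called after centring (0.59).

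Of the 27 families, 13 had several listed members. In 8 of these (families 6, 7, 9, 16, 22, 25, 27 and 35) some members were higher and others lower, and in 5 (families 2, 12, 29, 38 and SLCO) all members were higher as deposited and after centring. Family 2 is uniform only because the rule leaves out SLC2A1, which fell by 1.25. Family 16 joined SLC16A9, lower by the values above, with SLC16A13, which rose by 0.74 from 5.92 and 5.91 in growth medium to 6.69, 6.89 and 6.42 in hypertrophic medium. After centring SLC16A13 was not called (0.40; limma, adjusted p = 0.0534). In family 9 the parent gene SLC9A7 fell while SLC9A7P1, its processed pseudogene, rose by 0.80, from 4.64 and 4.64 to 5.67, 5.22 and 5.44. The value of the pseudogene is uncertain, since reads of so similar a pair may be assigned to either. The differences between members of a family were not tested.

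**Figure D3:**
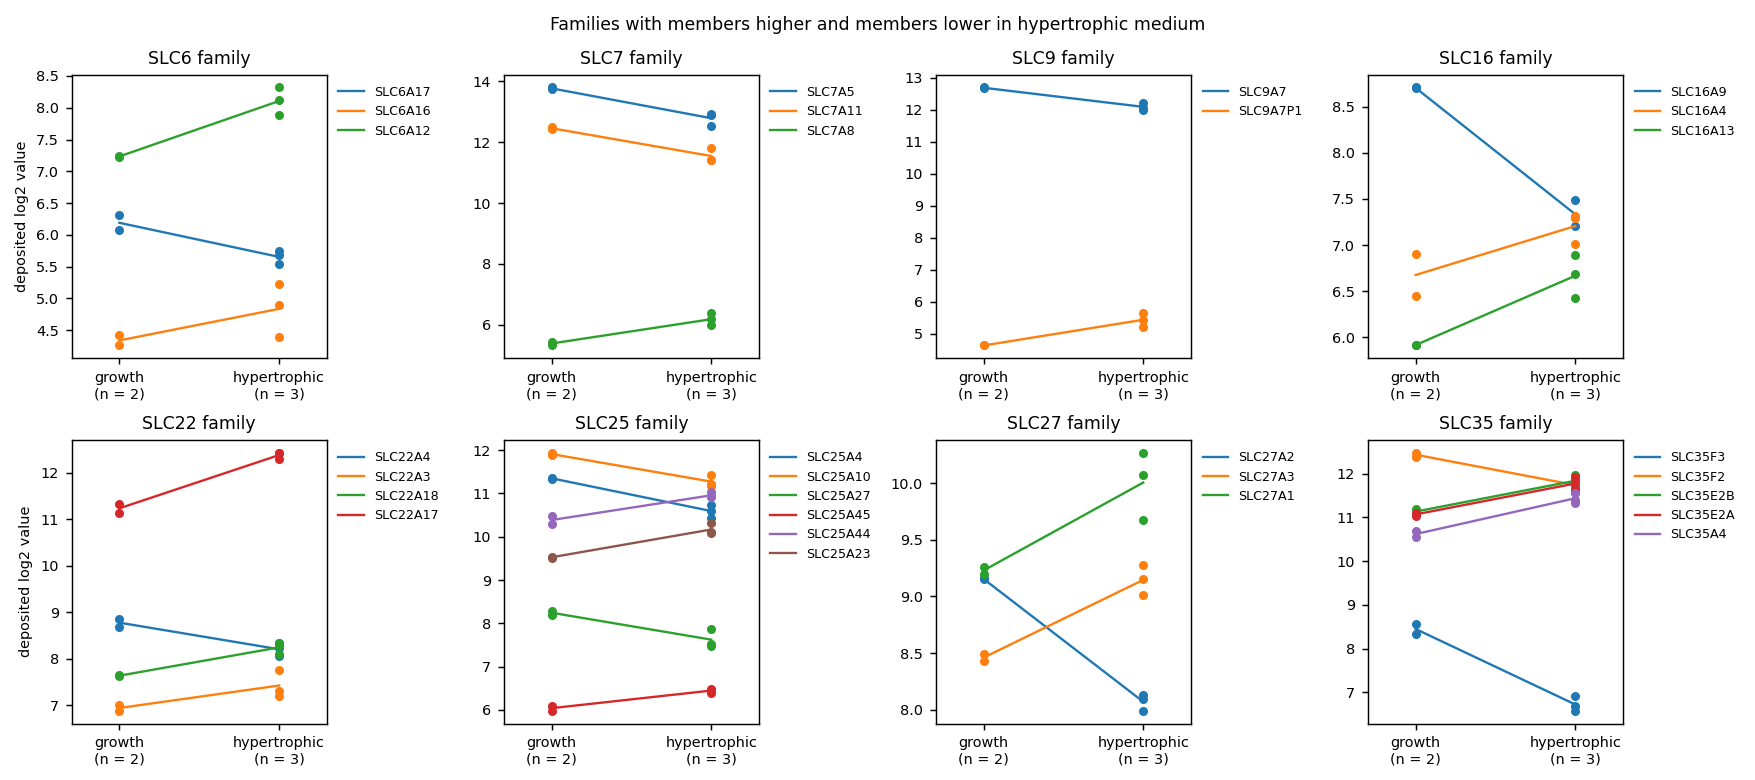
Deposited log2 values of listed members of the 8 families with members in both directions, in growth medium (n = 2) and hypertrophic medium (n = 3). Points are libraries and lines join the group means. SLC7A5 and SLC7A11 slope down while SLC7A8 slopes up.

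Some members carry components that differ between the media. Of 17 transporters of T3, ascorbate, phosphate, iron or zinc, 3 were listed, of which 2 rose and 1 fell, and after centring 1 was called higher and 1 lower. Over all listed genes 62.5% were called higher and 36.5% lower, and 31.4% and 36.6% after centring. SLC7A5 and SLC7A8, described above, carry thyroid hormone along with amino acids. Of 10 genes that handle or answer thyroid hormone, 4 were listed, of which 3 rose and 1 fell, as they did after centring. As deposited this is near the shares over all listed genes (62.5% and 36.5%). After centring it is not near those shares (31.4% and 36.6%). So few genes say nothing of the list. DIO2, the deiodinase that makes T3 from thyroxine, fell by 1.34, while HR and KLF9, genes known to respond to T3, rose by 1.13 and 0.89.

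The genes that work beside these carriers were counted the same way, next to 62.5% of all listed genes called higher and 36.5% called lower. After centring those shares were 31.4% and 36.6%. Of 34 genes of the amino acid response, in which SLC7A5 and SLC7A11 are known targets, 4 were listed and 4 fell. STC2, a secreted glycoprotein, fell by 2.21, from 14.41 and 14.40 in growth medium to 12.59, 12.06 and 11.94 in hypertrophic medium. ATF3, a stress transcription factor, fell by 0.79, and the lipoprotein receptor VLDLR by 0.76. Of 27 genes of glycolysis and lactate metabolism, 8 were listed, with 2 rises and 6 falls and a median difference of -0.74. The 2 rises were those of PDK2 (0.62) and PDK4 (0.45). HK2, the hexokinase that traps glucose in the cell, fell by 1.46, PDK1 by 0.96 and the phosphofructokinase PFKP by 0.83. Centring can only deepen these falls (4 and 6 genes called), and it left 0 of the 2 glycolysis rises. Of 15 genes of phosphate and mineral handling, 6 were listed, of which 5 rose and 1 fell, and after centring 3 and 1. MGP, an inhibitor of calcification, had the values 7.20 and 7.21 in growth medium and 9.82, 8.64 and 10.38 in hypertrophic medium, and ANKH, which exports ATP and thereby raises pyrophosphate, rose by 1.09. NT5E fell by 0.82. Of 32 genes that supply sulfate and sugars to glycosaminoglycans, 3 were listed, of which 2 rose and 1 fell, namely the sulfotransferases CHST6 (0.72) and CHST2 (0.60) and the UDP-GlcNAc enzyme UAP1 (-0.86). After centring 1 was called higher, without CHST2 (0.26; limma, adjusted p = 0.0928), and 1 lower. Of 26 genes of metal handling, 2 were listed, and ATP7A (0.72), a copper pump, and MT1F (0.55), a metallothionein, rose, and after centring the call of MT1F was lost (0.20; limma, adjusted p = 0.379).

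Carriers and pumps outside the rule are given next to the same shares, 62.5% of all listed genes called higher and 36.5% lower. After centring those shares were 31.4% and 36.6%. Of 64 carriers without an SLC symbol, 6 were listed, of which 5 rose and 1 fell, with a median difference of 0.59, against 0.56 over all listed genes. After centring 2 were called higher and 1 lower. NIPAL1, a magnesium transporter family member, fell by 1.38, and SV2A, a synaptic vesicle glycoprotein, rose by 0.84. Of 47 genes on a list of sodium, potassium, calcium, proton and ATP13A pumps, 4 were listed and 4 rose. The list does not take in all P-type ATPases, and ATP8B1 (-1.11) and ATP8A2 (-0.51), lipid flippases outside it that were looked up after the values were seen, had lower means. ATP2A3, a calcium pump of the endoplasmic reticulum, rose by 0.82, and ATP1B1, a subunit of the sodium pump, by 0.66. After centring 1 of the 4 was called, and ATP1B1 was not (0.31; limma, adjusted p = 0.0907). None of these lists was tested as a list.

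The distance of each hypertrophic library from growth medium was compared gene by gene. Among the 42 members with a higher mean, replicate 3 was nearest to growth medium for 28 (66.7%, against 60% of the 1707 such listed genes), and replicate 2 was farthest for 23 (54.8%, against 32.1%). Over all such listed genes replicate 1 was the farthest most often (55.1%), and among the members it was for 18 (42.9%). The 14 members with a lower mean were ordered otherwise, with replicate 3 farthest from growth medium for 8 (57.1%, against 31% of the 987 lower listed genes, where replicate 1 led with 41.6%). After centring, replicate 3 was nearest for 19 (45.2%, against 40.6%) and replicate 2 farthest for 23 (54.8%, against 40.2%), and among the lower members replicate 1 was farthest for 8 (57.1%, against 71.3%). The order thus differed between higher and lower members, and for the lower members also with the scaling. The medians of all listed log2 values were 8.17 and 8.18 in growth medium and 8.62, 8.52 and 8.43 in hypertrophic medium replicates 1, 2 and 3. The median SD of the members was 0.0702 in growth medium and 0.163 in hypertrophic medium, next to 0.0665 and 0.158 over all listed genes. The spread of the members therefore resembles that of the list, apart from SLC1A3, whose SD of 1.28 ranked 3 among the 2694 genes.

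**Figure D4:**
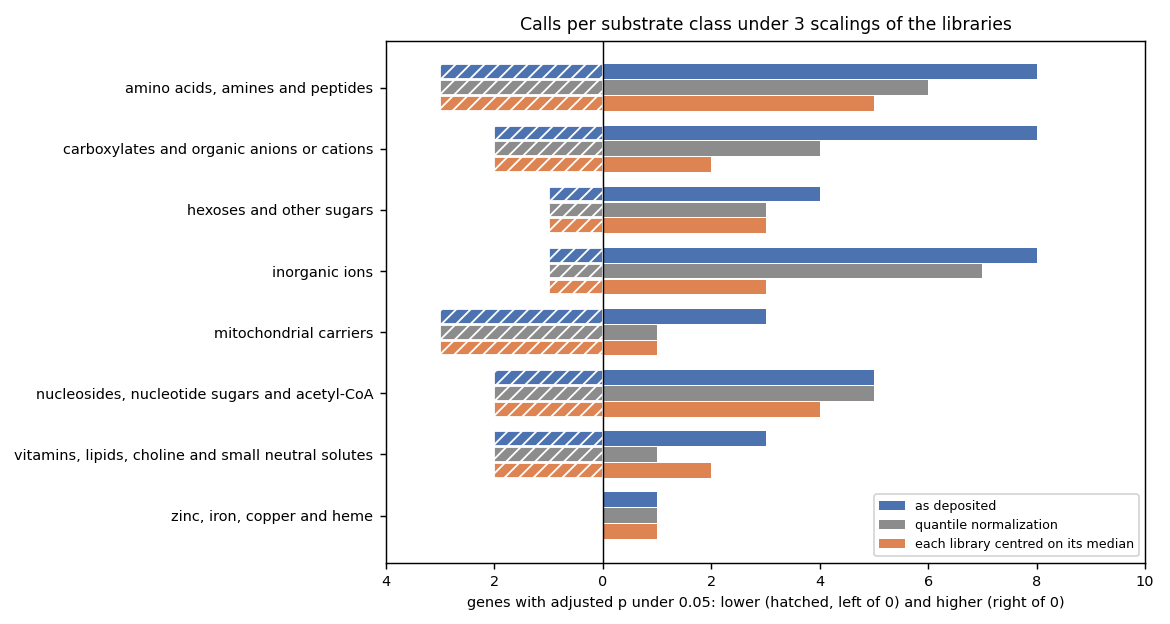
Number of members per substrate class with an adjusted p under 0.05 in limma, higher in hypertrophic medium to the right of 0 and lower to the left (hatched), under 3 scalings of the libraries. The falls number 14 in each scaling, while the rises number 40 as deposited, 28 with quantile normalization and 21 after centring, which lowers every difference by the same amount.

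Position and overlap with other genes were read from GENCODE 44 on GRCh37, the build the authors aligned to. Genes named only by an Ensembl identifier were not counted as overlapping. SLC38A3 lies at chr3:50242679-50258918 on the plus strand and SLC35F3 at chr1:234040422-234460257 on the plus strand. No exon base of either is shared with another gene that has a symbol. SLC7A5 lies at chr16:87863629-87903113 on the minus strand. Of member pairs on a chromosome, 3 lay within 500 kb of each other. SLC7A8 and SLC22A17, which both rose, are 162.6 kb apart on chromosome 14. SLC6A17, which fell, and SLC16A4, with a higher mean, are 160.6 kb apart on chromosome 1, where the copies SLC35E2B and SLC35E2A are 41.9 kb apart. Whether reads were counted by strand is not given in the sources used here, so genes with antisense partners are uncertain. SLC2A12 shares 51.2% of its exon bases with TBPL1 on the opposite strand, SLC27A2 shares 19.9% with ATP8B4, SLC29A2 10.3% with B4GAT1-DT and SLC7A11 9.0% with SLC7A11-AS1.

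The promoters of the members were searched for 5 short motifs. RefSeq promoter windows on GRCh38.p14 run from 250 bases before to 50 bases after a gene start, and 36 members had at least 1, with 52 windows in all. The windows of the members had a median GC content of 65.5%, against 58.7% over all 35116 windows. Both strands were searched. The spaced core of the glucocorticoid response element, ACANNNTGT, was in 5.77% of member windows and in 5.37% of all windows. The windows that hold it belong to SLC1A3 and SLC2A12, with higher means, and to SLC25A4, which fell. They are the only member windows with this core and are shown because hypertrophic medium contains dexamethasone, a choice made after the matches were counted. Capitals mark the letters of the core. The window of SLC1A3 is chr5:36606704-36607003 (plus strand), that of SLC2A12 chr6:134052575-134052874 (minus strand) and that of SLC25A4 chr4:185143016-185143315 (plus strand).
SLC1A3: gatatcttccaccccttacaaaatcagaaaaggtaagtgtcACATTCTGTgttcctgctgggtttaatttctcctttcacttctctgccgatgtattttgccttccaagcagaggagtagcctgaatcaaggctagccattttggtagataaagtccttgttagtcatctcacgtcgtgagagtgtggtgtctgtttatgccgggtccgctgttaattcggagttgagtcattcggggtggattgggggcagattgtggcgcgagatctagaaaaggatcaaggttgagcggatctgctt
SLC2A12: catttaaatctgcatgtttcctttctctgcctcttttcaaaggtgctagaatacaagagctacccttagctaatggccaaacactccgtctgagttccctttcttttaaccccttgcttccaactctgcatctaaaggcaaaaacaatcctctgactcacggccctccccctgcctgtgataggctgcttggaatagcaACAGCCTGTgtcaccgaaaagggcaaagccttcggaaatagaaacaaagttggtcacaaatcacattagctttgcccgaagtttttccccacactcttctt
SLC25A4: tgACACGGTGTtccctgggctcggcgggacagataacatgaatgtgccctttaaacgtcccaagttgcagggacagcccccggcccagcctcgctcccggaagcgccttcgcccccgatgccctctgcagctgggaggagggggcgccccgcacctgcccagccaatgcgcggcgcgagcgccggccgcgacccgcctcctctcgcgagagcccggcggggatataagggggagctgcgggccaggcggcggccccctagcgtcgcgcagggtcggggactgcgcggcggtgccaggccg
Counted from the start that each window belongs to, the first base of the core is at -209 in SLC1A3, -51 in SLC2A12 and -248 in SLC25A4. SLC1A3 has 3 windows, and the one shown belongs to an alternative start, the farthest downstream of the 3, while the other windows of this gene do not hold the core. The hypoxia response core ACGTG was in 30.8% of member windows and 21.4% of all windows, for 12 of 26 members with a higher mean and 3 of 10 with a lower one, SLC7A5 among the latter. The metal response core was in 9.62% of member windows and 12.1% of all windows as TGCACNC, and in 32.7% and 20.0% as TGCGCNC. By direction, TGCACNC was found for 5 of 26 higher members and 0 of 10 lower ones. TGCGCNC was found for 8 of 26 and 7 of 10. The amino acid response core TGATGNAA was in 1.92% of member windows and 3.62% of all, for 1 of 26 higher members and 0 of 10 lower ones. Matches of different motifs shared bases in 1 of the 52 windows. A match describes the letters in the window and nothing more.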

How the data were processed

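Bulk RNA sequencing covered 5 libraries of TC28a2 chondrocytes, 3 from hypertrophic medium and 2 from growth medium. By the study's methods, the authors aligned reads to hg19 with HISAT2 and counted them with StringTie. Genes with a count of 0 were left out, and log2 was taken with RLE scaling. The deposited log2 values cover 2694 genes, which appear to be a selected list rather than every gene that passed this count filter. The submitters' processing notes list cutadapt 1.18 and bcl2fastq 2.20.0.422, and also a rat build with TopHat2 2.0.13 and Cuffdiff 2.2.1, which does not match human cells. The exact log2 transformation is not given, so a difference is one of deposited values and not strictly a log2 fold change of counts. Depth per library is unknown, and precision rests on the 5 libraries.

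Groups came from the sample labels. The media were compared with limma 3.58.1 (lmFit, eBayes with a trend) in R 4.3.3, two-sided, with Benjamini-Hochberg adjustment over all listed genes. Tables and figures used Python 3.11.15, pandas 2.3.3, numpy 2.4.6 and matplotlib 3.10.9. The members and lists were chosen with earlier results of these data known. Named members were the 10 largest rises and 10 largest falls, the largest difference of each class, transporters of medium components, the extremes of families that move both ways, and the extremes of spread and level. Other members were named after their values were seen. Values of several genes within this rule were left out. Alternatives were median centring, quantile normalization, eBayes without a trend, a replicate block, each library left out, an unadjusted p, a filter on low values and, added after seeing the data, the rule matched over the whole symbol.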

Additional observations from a re-analysis of the deposited data

How the results depend on the processing

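The count of members that rose, 40 as reported, was 21 after centring. The filter on low values kept the 1347 genes at or above the median value, 32 members among them. Of these members 23 rose and 8 fell and 0 calls were lost, next to 1344 of the 1347 genes called. The lower counts thus come from members that the filter left out. Rises of 1 or more (4 as reported) numbered 1 after centring and 1 with quantile normalization. Falls of 1 or more (4) numbered 8 after centring and 1 among the members that the filter kept. Centring lowers every difference by construction. SLC49A3 turned to -0.01 after centring (limma, adjusted p = 0.958). With each library left out in turn, rises ranged from 30 to 41, falls from 10 to 14, rises of 1 or more from 2 to 7 and falls of 1 or more from 4 to 6. Rises of 1 or more were 2 without growth medium replicate 2, where the lone growth library is assumed to vary like the others, and 7 without hypertrophic medium replicate 3. With a hypertrophic library left out, 2534 to 2620 of the 2694 listed genes were called. With the replicate block, rises of 1 or more were 7, with 41 rises, 14 falls and 4 falls of 1 or more. The block called 2665 of the listed genes. The differences between replicates 1 and 2 were not correlated between the media (-0.0253 across 2694 genes). This correlation cannot show whether the replicate numbers paired the samples. SLC1A3 was called with the block (1.61), and SLC22A3 lost its call. Hypertrophic medium replicate 3 has no growth medium library of the same number. The blocked difference of SLC1A3 therefore equals that without this replicate (1.61), and the block is not a separate check. Among the 34 named members, SLC6A16 lost its call without a trend (limma, adjusted p = 0.0562). The cause was not tested where none is given.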

Other observations

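Ion channels are not solute carriers but share their ions. Of 38 listed channel genes taken by symbol pattern (potassium, sodium, calcium, chloride, TRP and related families, not every channel gene), 26 rose and 12 fell by limma (adjusted p under 0.05), with a median difference of 0.63 on the deposited log2 scale. The higher share of 68.4% is near that of all listed genes (62.5% called higher and 36.5% lower). After centring 14 were called higher and 12 lower, next to 31.4% and 36.6% of all listed genes. KCNE4, a regulatory subunit of potassium channels, gave 8.22 and 8.18 in growth medium and 11.23, 9.81 and 9.95 in hypertrophic medium, with replicate 1 the highest. TRPM2, a calcium-permeable channel, fell by 1.66, and SCN4B, a sodium channel subunit, rose by 1.64. Of 5 listed ABC transporters, 3 rose and 2 fell, again near those shares, and after centring 2 and 2. ABCG2, an efflux pump, fell by 0.94, ABCC6 rose by 0.91 and ABCA7 rose by 0.68, a call lost with quantile normalization (0.33; limma, adjusted p = 0.0502).

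SLC1A3 was not the only gene with a high value in hypertrophic medium replicate 1. The genes with a wider spread in hypertrophic medium, named after their values were seen, were SUCNR1 and CHI3L1. SUCNR1, the succinate receptor, read 6.77 and 6.45 in growth medium and 10.06, 7.73 and 7.59 in hypertrophic medium. CHI3L1, a glycoprotein secreted by chondrocytes, read 5.99 and 6.20 in growth medium and 8.90, 6.56 and 6.60 in hypertrophic medium. In both, replicate 1 stood above replicates 2 and 3 as it did for SLC1A3. Whether these genes share a source in that library was not tested.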
